A study of Arabidopsis thaliana with 2 samples.

Results

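FLS2, EFR and the receptor kinases that work beside them were followed by gene identifier in RNA sequencing of Arabidopsis thaliana seedlings treated with flg22. The 10 genes are FLS2 (AT5G46330), EFR (AT5G20480), BAK1 (AT4G33430), BKK1 (AT2G13790), SERK1 (AT1G71830), SERK2 (AT1G34210), BIR1 (AT5G48380), BIR2 (AT3G28450), BIR3 (AT1G27190) and SOBIR1 (AT2G31880). They were looked up by identifier, and all 10 were found among the 27416 genes of the table. The list itself was chosen with earlier results of these data known, which limits every comparison of it with all genes. The control group was wild-type Columbia seedlings at day 10 after germination with no flg22, and the treated group was the same wild type, age and tissue given 1 µmol/L flg22 over 4 h. A single library stood for each group and pooled 3 biological replicates, so no spread between plants can be measured, no test of treatment is possible and no p-value was computed. The libraries held 21414567 control reads and 24621440 flg22 reads.

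FLS2 and EFR are receptor kinases with a leucine-rich repeat ectodomain; FLS2 binds flg22, a peptide of bacterial flagellin, and EFR binds elf18, a peptide of bacterial elongation factor Tu. On binding, each receptor recruits a shorter co-receptor kinase of the SERK family, chiefly BAK1, and the kinase domains then activate cytoplasmic kinases such as BIK1. BIR kinases bind the SERKs and hold them away from receptors in the absence of ligand, while SOBIR1 is the kinase partner of receptor-like proteins that have no kinase domain of their own. SERKs also serve receptors for growth hormones, so the same co-receptors are shared between growth and immunity.

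In the flg22 library 6 of the 10 genes were higher by 2-fold or more: BKK1, EFR, SOBIR1, BAK1, BIR1 and BIR2. FLS2, SERK1 and SERK2 lay within 2-fold, and BIR3 was lower by close to 2-fold. This count is on log2((flg22 RPKM + 1)/(control RPKM + 1)), where RPKM is the deposited reads per kilobase of listed gene length, scaled to the library total. A filter kept the 18724 genes that averaged 1 RPKM or more, all 10 receptor genes among them. On the same scale 11.3% of those 18724 were higher by 2-fold or more, against 6 of the 10 receptor genes, and 8.27% were lower by 2-fold or more, against 0 of the 10. The median log2 ratio was 1.19 over the 10 genes and -0.03 over all genes past the filter. BKK1 alone was past 4-fold, as were 4.17% of all genes; with no added constant EFR was past it too. In whole seedlings, fewer cells of a type and less RNA per cell cannot be told apart, and this holds for every difference given here. Folds given for single genes are reads over library totals with no added constant, and the range beside each is its exact 95% counting interval, which takes in the sampling of reads and nothing else.

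The sequences before the annotated starts of 4 of these genes are shown. BAK1, BKK1 and BIR1 were higher and hold a match to the W-box, the element bound by WRKY transcription factors of the defence response. FLS2 was little different and holds none. These 4 were picked with matches and folds known, and others go the other way. EFR, also higher, holds none, and SERK1, which was lower, holds 1. Whether matches bear on the folds was not tested. The matches searched were TTGACC and TTGACT on either strand; no matches overlap in the windows shown, and they stand in capitals, written as GGTCAA or AGTCAA where the match is on the opposite strand. Each sequence is the 250 bases before the gene start of the RefSeq annotation of TAIR10.1, read 5′ to 3′ on the gene's strand. BAK1 lies on the minus strand of chromosome 4 and its window is chr4:16090833-16091082. The BKK1 window is chr2:5741342-5741591 on the plus strand. The BIR1 window is chr5:19607148-19607397 on the minus strand, and the FLS2 window is chr5:18791325-18791574 on the plus strand.
BAK1: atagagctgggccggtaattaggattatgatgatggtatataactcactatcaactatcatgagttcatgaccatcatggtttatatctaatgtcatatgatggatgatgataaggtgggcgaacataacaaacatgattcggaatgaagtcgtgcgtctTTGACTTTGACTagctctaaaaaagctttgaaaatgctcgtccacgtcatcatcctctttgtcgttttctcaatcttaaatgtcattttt
BKK1: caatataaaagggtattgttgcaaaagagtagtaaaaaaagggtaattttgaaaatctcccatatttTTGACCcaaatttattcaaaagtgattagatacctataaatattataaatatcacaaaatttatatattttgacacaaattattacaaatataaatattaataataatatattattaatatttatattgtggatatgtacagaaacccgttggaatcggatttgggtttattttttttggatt
BIR1: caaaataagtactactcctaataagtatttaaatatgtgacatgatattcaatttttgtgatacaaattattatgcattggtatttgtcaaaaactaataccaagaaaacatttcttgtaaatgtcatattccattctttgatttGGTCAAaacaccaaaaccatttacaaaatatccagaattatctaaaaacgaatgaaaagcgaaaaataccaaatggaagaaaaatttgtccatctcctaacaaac
FLS2: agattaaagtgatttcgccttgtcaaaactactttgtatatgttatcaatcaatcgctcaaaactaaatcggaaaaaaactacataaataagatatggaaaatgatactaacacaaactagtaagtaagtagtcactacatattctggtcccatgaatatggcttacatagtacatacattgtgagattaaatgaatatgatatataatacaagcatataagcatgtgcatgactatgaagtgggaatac

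In TAIR10.1, EFR lies at chr5:6921509-6925901, SERK1 at chr1:27018158-27022117, SERK2 at chr1:12458564-12462905 and BIR2 at chr3:10667135-10669428 on the plus strand, and BIR3 at chr1:9446597-9449046 on the minus strand. BIR2, BIR3 and SOBIR1 are annotated with 1 exon, FLS2 and EFR with 2, and the SERK genes of the set with 11 or 12.

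BAK1 holds 2 W-box matches in direct succession, 90 and 84 bases before its start, and 6.20% of protein-coding genes of the table hold 2 or more. BKK1 holds 1 match 183 bases before its start, and BIR1 holds 1 on the opposite strand, at 105 bases. BIR2 has 1 match at 99 bases, on the opposite strand, and SERK1 has 1 at 172 bases. FLS2, EFR, SERK2 and BIR3 have none in this window. Of the 9 genes whose windows were read, 4 of the 5 at least 2-fold higher and 1 of the other 4 hold a match, against 28.5% of 26709 protein-coding genes of the table. A match to these letters is a description and not a binding site, and its absence from this window says nothing of WRKY factors at these genes.

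The ligand receptors differed in the size of their folds. FLS2 had 1818 reads without flg22 and 2646 with it, or 22.3 and 28.2 RPKM. It was 1.27-fold higher (1.19 to 1.34), a difference beyond counting error but one that 29.1% of all genes past the filter equalled or exceeded. EFR had 130 control reads and 778 flg22 reads, or 1.78 and 9.27 RPKM, and was 5.21-fold higher (4.32 to 6.32). EFR was the lowest of the 10 genes in the control library on either length, and with flg22 the eighth per listed length and the ninth per kilobase of joined exons. Of all genes past the filter, 4.63% had a log2 ratio at least as high. The fold of EFR was 4.11 times that of FLS2 (3.38 to 4.998, counting error only). Per listed length, EFR stood at 0.0800 of the FLS2 level in the control library (0.0664 to 0.0956) and at 0.329 with flg22 (0.303 to 0.356). FLS2, the receptor of the applied peptide, was thus the higher of the pair in both libraries.

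**Figure D1:**
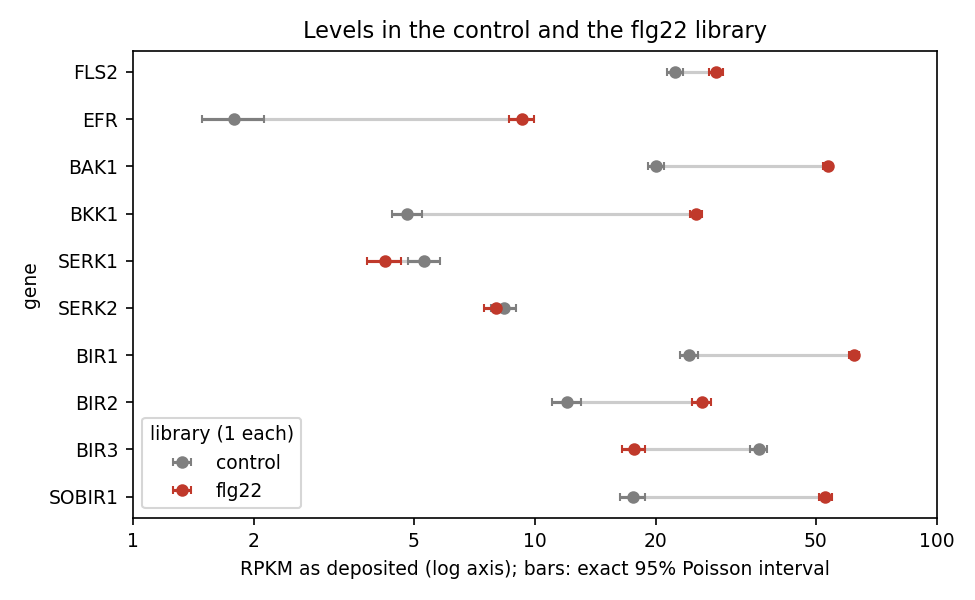
Levels of the 10 genes in RPKM (log axis) in the control library (grey) and the flg22 library (red), with exact 95% Poisson intervals of the reads. EFR stands at 1.78 and 9.27 RPKM, BKK1 at 4.82 and 25.2 and FLS2 at 22.3 and 28.2, while BIR3 is lower with flg22, at 36.0 and 17.6.

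With only 2 libraries, the genes most like FLS2 can be sought only by level and ratio. The nearest by Euclidean distance on log2(RPKM + 1) in both libraries were AT1G75560 at 0.0217, AT3G58510 at 0.0283 and RPS10 (AT3G22300) at 0.0290. Within a distance of 0.1 there were 54 genes, so this likeness is shared by many.

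Among the SERK co-receptors, BAK1 and BKK1 were higher with flg22 and SERK1 and SERK2 were not. BAK1, the main partner of FLS2 and EFR and also of the brassinosteroid receptor BRI1, had 1913 control reads and 5888 flg22 reads, or 20.003 and 53.5 RPKM. Its fold was 2.68 (2.54 to 2.82), and 7.71% of all genes past the filter had a log2 ratio at least as high. BKK1, also called SERK4, which shares immune and cell-death functions with BAK1, had 513 and 3084 reads, or 4.82 and 25.2 RPKM. Its fold was 5.23 (4.76 to 5.75), 1.95 times that of BAK1 (1.76 to 2.17, counting error only), and 3.58% of all genes had a ratio at least as high.

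SERK1, best known for its work with SERK2 in anther development and able to serve in brassinosteroid signalling, had 450 control reads and 412 flg22 reads. Its level was 5.31 RPKM in the control library and 4.23 with flg22, a fold of 0.796 (0.695 to 0.912), which is lower beyond counting error. SERK2 had 759 and 836 reads, or 8.37 and 8.02 RPKM. Its fold of 0.958 had an interval that includes 1 (0.867 to 1.06), so a difference could not be detected with these reads. The contrast inside the family was larger than counting error: the fold of BKK1 was 6.57 times that of SERK1 (5.58 to 7.73), and the fold of BAK1 was 2.79 times that of SERK2 (2.50 to 3.12).

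**Figure D2:**
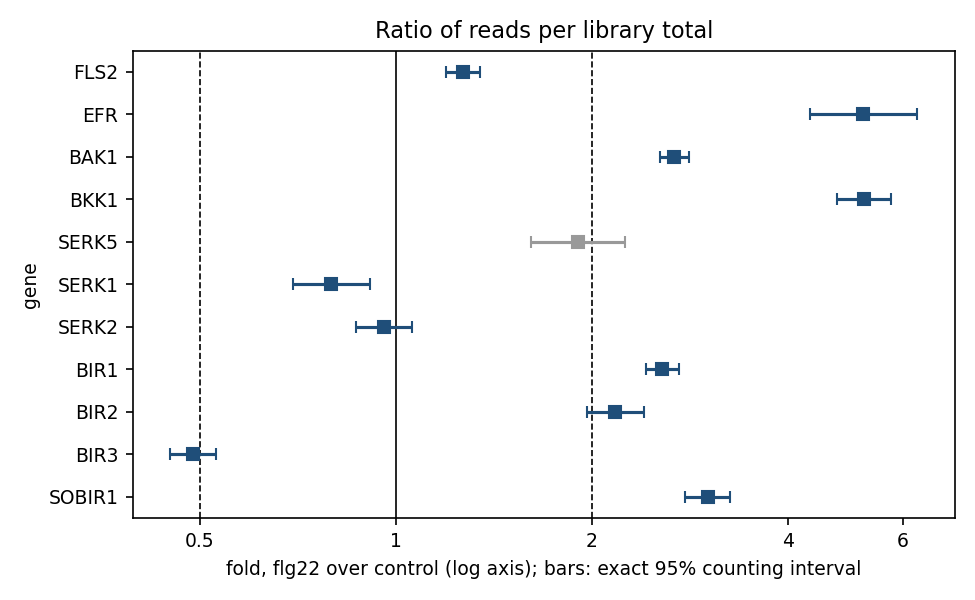
Fold of reads per library total, flg22 over control (log axis), with exact 95% counting intervals; dashed lines mark 2-fold and SERK5, the close copy of BKK1, is grey. BKK1 and EFR lie above 4, BAK1, BIR1 and SOBIR1 lie between 2.5 and 3.1, the interval of SERK2 includes 1, and the intervals of BIR2 and BIR3 include a 2-fold difference.

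The reads of BKK1 and its neighbour SERK5 (AT2G13800) can be shared. Their coding sequences were 91.4% identical over 1806 aligned bases in TAIR10.1, with an identical run of 473 bases, and 23.1% of the 50-base stretches in BKK1 transcripts also occur in SERK5. The next closest pair of the 5 SERKs, BAK1 and BKK1, was 82.0% identical with a longest run of 39 bases. The starts of both reading frames are shown because they are a place where reads of the neighbours can be told apart. They are bases 16 to 105 of the longest annotated BKK1 reading frame and the aligned bases 1 to 90 of SERK5, with the 28 bases that differ in capitals.
BKK1: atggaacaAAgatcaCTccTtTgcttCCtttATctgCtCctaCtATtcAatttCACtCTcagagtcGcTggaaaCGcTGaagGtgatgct
SERK5: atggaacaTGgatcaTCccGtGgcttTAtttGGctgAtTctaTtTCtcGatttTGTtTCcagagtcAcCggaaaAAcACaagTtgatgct

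SERK5 had 213 control reads and 466 flg22 reads, or 2.51 and 4.77 RPKM, and was 1.90-fold higher (1.61 to 2.25). The fold of BKK1 was 2.75 times that of SERK5 (2.28 to 3.31, counting error only). Summed, the neighbours had 726 and 3550 reads and were 4.25-fold higher (3.93 to 4.61). If each shared read was counted once, that value does not depend on how such reads were divided between them. The counting rule is not stated, so shared reads may also have been dropped or counted for both. SERK1 and SERK2, at 79.6% identity, had no run above 41 bases and no shared stretch of 50 bases with each other.

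Summed per listed length, the 4 SERK genes among the 10 went from 38.5 to 91.0 RPKM, and their reads were 2.45-fold higher (2.35 to 2.54). The make-up of that sum differed between the libraries. Per kilobase of joined exons, BAK1 took 49.5% in the control library and 54.3% with flg22, and BKK1 took 15.3% and 32.7%. SERK2 took 22.1% and 8.69%, and SERK1 13.04% and 4.26%. BKK1 stood below SERK2 in the control library and above it with flg22, and BAK1 was the most abundant of the 4 in both libraries.

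The BIR kinases differed in direction. BIR1, whose loss causes cell death and constitutive defence that require SOBIR1, had 1541 control reads and 4546 flg22 reads, or 24.2 and 62.2 RPKM, a fold of 2.57 (2.42 to 2.72). BIR2, which binds BAK1 and is released from it on flg22 perception, had 543 and 1355 reads, or 11.99 and 26.02 RPKM. Its fold of 2.17 had an interval that reaches below 2 (1.96 to 2.40). BIR3, which binds BAK1 and receptors such as BRI1 and restrains brassinosteroid signalling, had 1673 control reads and 940 flg22 reads, or 36.0 and 17.6 RPKM.

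BIR3 was the highest of the 10 genes per listed length in the control library and the seventh with flg22. Its log2 ratio with 1 RPKM added was -0.99, just short of the 2-fold limit, and 8.39% of all genes past the filter were as low or lower. With no added constant it was 2.05-fold lower (1.89 to 2.22), and 11.3% of genes past the filter were at least 2-fold lower on that scale, where BIR3 was the 1 receptor gene among them. The fold of BIR1 was 5.25 times that of BIR3 (4.76 to 5.79), and 1.18 times that of BIR2 (1.05 to 1.33). Per kilobase of joined exons, BIR3 made up 46.7% of the summed level of the 3 genes in the control library and 14.9% with flg22. BIR1 made up 37.1% and 62.1%, and BIR2 16.2% and 22.96%. Their summed reads were 1.58-fold higher with flg22 (1.52 to 1.65), a smaller fold than that of the 4 SERK genes. BIR4 (AT1G69990), a further member of the subfamily, had 1 control read and 8 flg22 reads and is not read further.

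**Figure D3:**
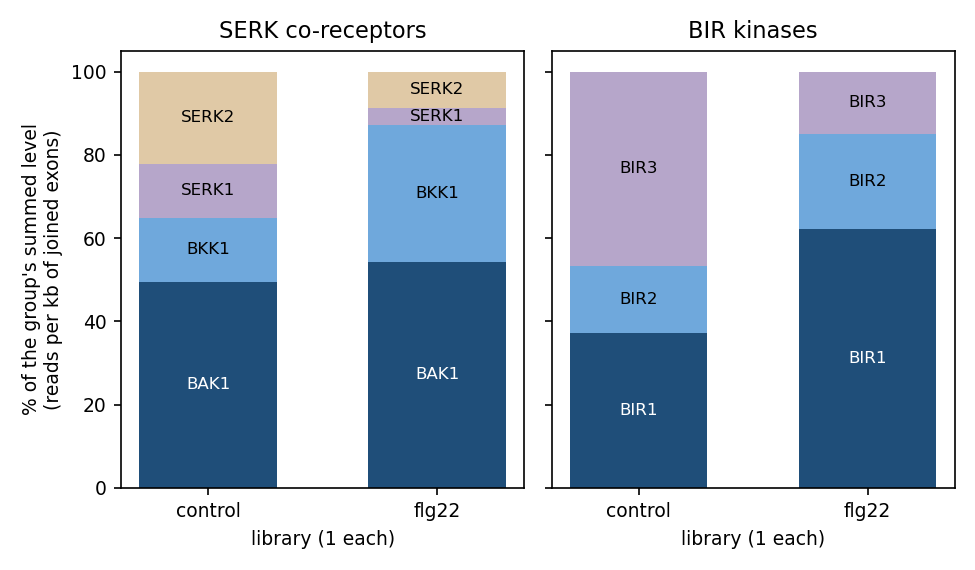
Shares of the summed level of the 4 SERK genes (left) and the 3 BIR genes (right) in each library, in reads per kilobase of joined exons. BKK1 takes 15.3% of the SERK sum in the control library and 32.7% with flg22, and BIR3 takes 46.7% and 14.9% of the BIR sum.

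SOBIR1, the partner of receptor-like proteins, had 782 control reads and 2706 flg22 reads, or 17.5 and 52.8 RPKM. It was 3.01-fold higher (2.78 to 3.26), and 6.67% of all genes past the filter had a log2 ratio at least as high. Its fold was 1.17 times that of BIR1 (1.06 to 1.29). SOBIR1 overlaps AT2G31890 on the opposite strand, and 21.1% of its 50-base stretches occur in the transcripts of that gene. AT2G31890 had 990 and 602 reads and was 1.89-fold lower (1.71 to 2.10), the direction opposite to that of SOBIR1. BAK1 overlaps AT4G33420 on the opposite strand over 1.01% of its stretches, and AT4G33420 was 2.49-fold higher (2.26 to 2.76). FLS2 and SERK2 overlap opposite-strand neighbours over 2.90% and 0.313% of their stretches, and AT5G46340 beside FLS2 was at 0.921-fold (0.838 to 1.01) and AT1G34220 beside SERK2 at 0.887-fold (0.805 to 0.977). EFR and SERK1 overlap non-coding RNA genes on the opposite strand, AT5G03135 over 105 exon bases and AT1G71828 over 158. SOBIR1 also overlaps an antisense RNA gene, AT2G08475. No reads are listed for these RNA genes. Whether counting used strand is not stated, so reads in these overlaps cannot be assigned, and their part in the folds was not tested.

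Against all genes, 6 of the 10 lay beyond 2-fold in the higher direction, and their log2 ratios ran from 1.06 for BIR2 through 1.32 for BIR1, 1.38 for BAK1, 1.54 for SOBIR1 and 1.88 for EFR to 2.17 for BKK1. The other 4 were 0.33 for FLS2, -0.06 for SERK2, -0.27 for SERK1 and -0.99 for BIR3. The receptor genes were modest beside FRK1 (AT2G19190), a marker of the flg22 response used here as a check of the treatment label, whose log2 ratio was 5.43.

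**Figure D4:**
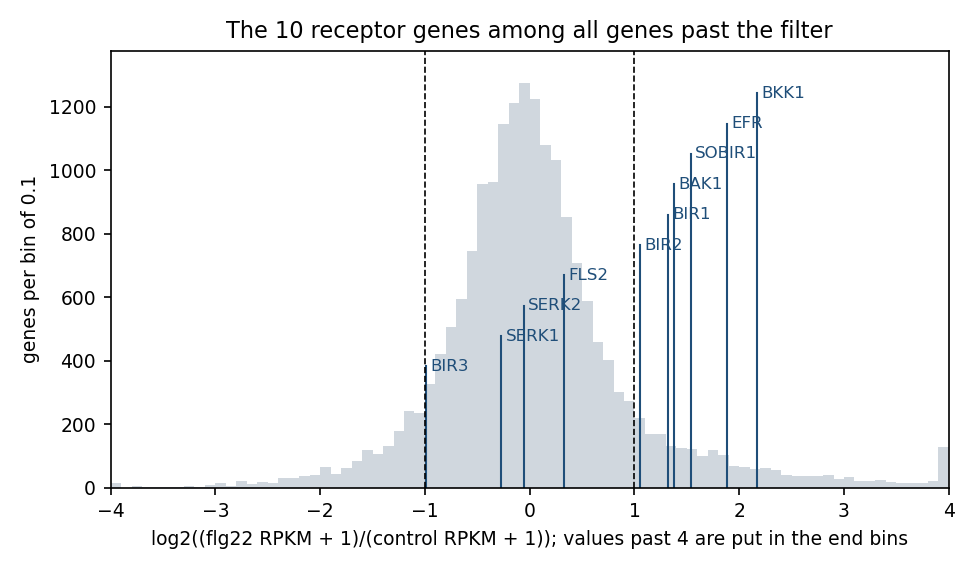
Distribution of the log2 ratio, with 1 RPKM added, over the 18724 genes past the filter (grey bars of width 0.1), with the 10 receptor genes as labelled blue lines and dashed lines at 2-fold. BIR2, BIR1, BAK1, SOBIR1, EFR and BKK1 lie to the right of the 2-fold line, and BIR3, at -0.99, lies beside the line on the left.

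The authors' deposited table gives a comparison of the same pair of libraries. In the authors' deposited table, 0.888% of the 23414 genes with a value had a false discovery rate (FDR) under 0.05, and 0 of the 10 receptor genes did. BKK1 had the smallest FDR of the 10 in the authors' deposited table, 0.710, with an unadjusted p of 0.0279 and a log2 fold change of 2.43. EFR followed in the authors' deposited table with an FDR of 0.795, an unadjusted p of 0.0343 and a log2 fold change of 2.42, and the other 8 had an FDR of 1. With 1 library a group these values cannot take in the spread between plants.

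Levels between genes depend on the length used. The deposited length, headed as exon length, was 4466 bases for BAK1, whose joined exons in RefSeq come to 2876, and 4973 for BKK1, with 2502. For FLS2 it was 3810 against 4250. Per listed length BAK1 stood at 0.898 of FLS2 in the control library (0.841 to 0.958) and 1.898 with flg22 (1.81 to 1.99). Per kilobase of joined exons the same ratio was 1.55 (1.46 to 1.66) and 3.29 (3.14 to 3.44). Which of FLS2 and BAK1 was higher in the control library thus turned with the length. The larger ratio in the flg22 library could not turn, since length cancels when the libraries are compared.

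In the control library the order per listed length was BIR3, BIR1, FLS2, BAK1, SOBIR1, BIR2, SERK2, SERK1, BKK1 and EFR. Among neighbours in that order, the ratio of SERK1 to BKK1 had an interval that includes 1 (0.969 to 1.25), and BIR1 stood at 1.09 times FLS2 (1.02 to 1.16). With flg22 the order was BIR1, BAK1, SOBIR1, FLS2, BIR2, BKK1, BIR3, EFR, SERK2 and SERK1. There the interval of the ratio included 1 for BAK1 to SOBIR1 (0.970 to 1.06) and for BIR2 to BKK1 (0.968 to 1.102), and FLS2 stood at 1.084 times BIR2 (1.01 to 1.16). Per kilobase of joined exons BAK1 led with flg22, at 83.2, ahead of BIR1 at 64.9, SOBIR1 at 52.7 and BKK1 at 50.1. In the control library on that scale BIR3, at 31.9, and BAK1, at 31.1, led, with a ratio of 1.03 (0.961 to 1.097). With flg22 on that scale the ratio of EFR, the ninth, to SERK1 also had an interval that includes 1 (0.999 to 1.27), as did that of FLS2 to BIR2 (0.987 to 1.13).

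The same comparison was made for genes tied to these receptors by family or function. Beside each list stand the shares of all genes past the filter, 11.3% higher and 8.27% lower by 2-fold or more. In lists this short, small counts are not read as a result about the list. Of 16 relatives in the same kinase subfamilies, 13 passed the filter. None of the 13 reached 2-fold higher, 2 reached 2-fold lower, and the median log2 ratio was 0.10. The lower genes were NIK3 (AT1G60800) and NIK1 (AT5G16000), kinases of the SERK subfamily known from antiviral defence in the case of NIK1. NIK3 went from 21.1 to 7.80 RPKM, 2.71-fold lower (2.49 to 2.95), and NIK1 from 19.4 to 8.34 RPKM, 2.32-fold lower (2.11 to 2.55). The highest of the 13 was AT3G47570, a relative of EFR, at 6.28 and 11.96 RPKM and a log2 ratio of 0.83, followed by AT5G65240 at 0.74 and SERK5 at 0.72. Of the relatives that did not pass, AT3G47090 had the most reads, 26 and 116, and a log2 ratio of 0.85. It was 3.88-fold higher with no added constant (2.52 to 6.19).

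Of 16 other receptors that pair with SERKs, 15 passed the filter, with 5 higher and 2 lower by 2-fold or more and a median log2 ratio of -0.14. The highest was MIK2 (AT4G08850), a receptor of the SCOOP peptides, at 34.1 and 176 RPKM and 5.17-fold (4.98 to 5.38). PEPR1 (AT1G73080), a receptor of Pep danger peptides, followed at 11.02 and 38.7 RPKM and 3.52-fold (3.26 to 3.79), and PSKR1 (AT2G02220), a phytosulfokine receptor, at 16.8 and 44.6 RPKM and 2.66-fold (2.49 to 2.85). PEPR2 and RLK7, named after their values were seen, were the others, at log2 ratios of 1.35 and 1.34. The lower genes were BRI1 and ERECTA. BRI1 (AT4G39400), the brassinosteroid receptor, went from 80.7 to 32.3 RPKM, 2.50-fold lower (2.40 to 2.61). ERECTA (AT2G26330), which acts in organ growth and stomatal patterning, went from 26.2 to 10.7 RPKM, 2.45-fold lower (2.31 to 2.61).

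Of 5 receptor-like proteins that work through SOBIR1, 4 passed the filter and 1 was higher by 2-fold or more, and the median log2 ratio was 0.58. RLP30 (AT3G05360) went from 3.82 to 14.2 RPKM, 3.71-fold (3.19 to 4.33). RLP1 (AT1G07390), which also passed 2-fold with no added constant, had a log2 ratio of 0.84, RLP32 (AT3G05650) of 0.32 and RLP42 (AT3G25020) of -0.75. RLP23, the receptor of nlp20 peptides, had 10 and 26 reads and did not pass.

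Of 28 partners and regulators of the FLS2 complex, 27 passed the filter, with 10 higher and 0 lower by 2-fold or more and a median log2 ratio of 0.81. IOS1 (AT1G51800), a receptor kinase that associates with FLS2 and BAK1, led at 6.79 and 167 RPKM and a log2 ratio of 4.43. RBOHD (AT5G47910), the NADPH oxidase of the immune oxidative burst, was at 16.2 and 121 RPKM and 7.44-fold higher (7.07 to 7.84). PCRK1 (AT3G09830), a cytoplasmic kinase of pattern-triggered immunity, was at 6.59 and 33.1 RPKM and 5.03-fold higher (4.49 to 5.65). The lowest ratios were -0.50 for ANX1 (AT3G04690) and -0.39 for PUB26 (AT1G49780), a ubiquitin ligase that acts on BIK1. ANX2 was listed at 0 in both libraries.

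Of the 5 genes for folding and quality control of EFR in the endoplasmic reticulum, 1 was higher by 2-fold or more and 0 were lower, and the median log2 ratio was 0.07. SDF2 (AT2G25110), needed for EFR accumulation, went from 20.3 to 44.5 RPKM, 2.19-fold (2.02 to 2.37). The calreticulin gene CRT3 had a log2 ratio of 0.14, the oligosaccharyltransferase subunit gene STT3A of 0.07, the retention receptor gene ERD2B of 0.03 and the glucosyltransferase gene UGGT of -0.16.

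**Figure D5:**
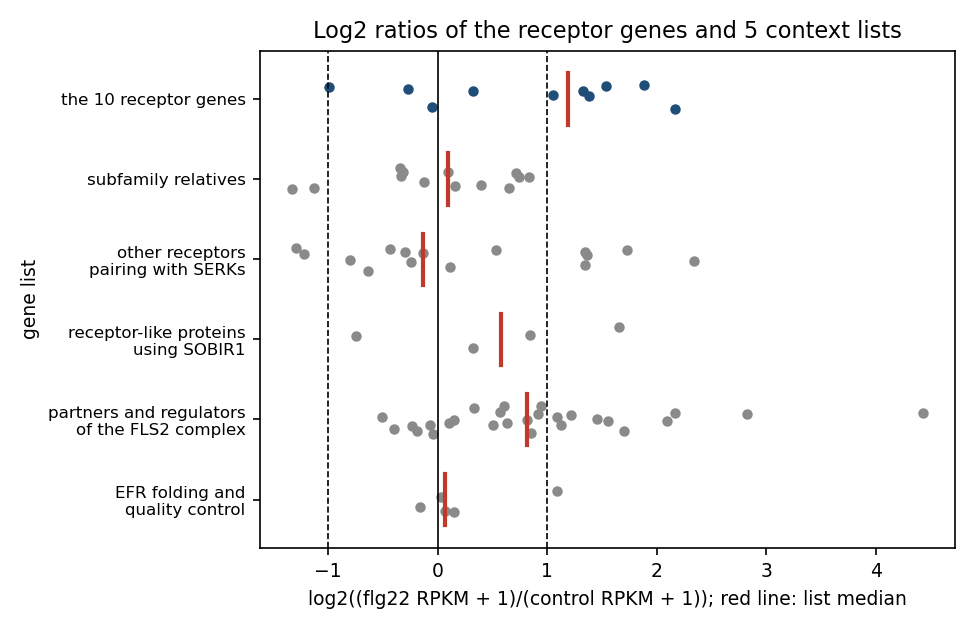
Log2 ratio, with 1 RPKM added, of each gene past the filter in the 10 receptor genes (blue) and 5 context lists (grey); red lines are medians and dashed lines mark 2-fold. The median is 1.19 for the receptor genes, 0.81 for partners and regulators, 0.58 for receptor-like proteins, 0.10 for subfamily relatives, 0.07 for EFR folding genes and -0.14 for other receptors pairing with SERKs.

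The libraries carried markers of both root and shoot. All 7 root markers passed the filter and lay within 2-fold with 1 RPKM added, with summed levels of 2579 control CPM and 1915 flg22 CPM, where CPM is RPKM without the division by length. PYK10, with 53151 and 45332 reads, made up most of that sum; EXP7 was higher with flg22, 2.03-fold with no constant (1.59 to 2.61), and WOX5 was at 1.55-fold (0.842 to 2.93). Of 6 shoot markers, RBCS1A and LHCB1.1, genes of photosynthesis, were lower by more than 2-fold, and the sum, most of it from those genes, went from 5124 to 1847 CPM. The other shoot markers differed in direction: SPCH was at 1.46-fold (1.19 to 1.80), MYB60 at 1.02-fold (0.863 to 1.203), KAT1 at 0.738-fold (0.665 to 0.818) and STM at 0.733-fold (0.561 to 0.955). Flower and seed markers summed to 5.56 and 2.76 CPM and none passed the filter. The flower gene PI had 8 and 44 reads and was 4.78-fold higher (2.23 to 11.8), while AP3 and AG had at most 5 reads in either library. The seed genes differed in direction, with 69 and 7 reads for CRA1, 35 and 0 for CRU3 and 1 and 8 for SESA1. The part of these marker differences in the values of the receptor genes was not tested.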

How the data were processed

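Messenger RNA of whole seedlings was sequenced in 1 control and 1 flg22 library, each a pool of 3 biological replicates, and groups follow the treatment label. The authors deposited whole-number read counts and RPKM per gene, per the file headers. Deposited RPKM equalled reads over the listed length and column total to within 7.24e-06%. The deposited comparison gives a log2 fold change, p-value and FDR by the authors. Bowtie, TopHat, DESeq and TAIR10 stand without versions in the submitters' processing notes. For the counting program and strand setting, the sources used here say nothing. The 2 columns of scaled values per library were not used.

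Log2((flg22 + 1)/(control + 1)) was computed from RPKM for the 18724 genes that averaged 1 RPKM or more; the limit was 2-fold by size alone. Folds use reads over column totals with exact conditional binomial (Clopper-Pearson) intervals, levels exact Poisson intervals and ratios of folds normal intervals on the log scale, all at 95% (scipy 1.17.1). Reads carry no molecular identifiers, so intervals cover counting error only. TMM factors came from edgeR 4.0.16. Gene positions, exons, promoters and coding sequences are RefSeq's for TAIR10.1, in which 26719 identifiers were found; the deposited table carries no positions, so coordinates were not taken from it. The promoter of SOBIR1 is not reported here. Coding sequences were aligned globally with biopython 1.88. The count past 2-fold and the fold intervals were tested on simulated Poisson counts, which hold no spread between plants. The other steps were not tested in this way.

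The receptor genes and the 5 context lists were chosen with earlier results of these data known. Named genes are the 10 receptor genes, SERK5, BIR4, FRK1, the 3 genes nearest to FLS2, and the 3 highest and 2 lowest ratios of each context list. Outside that rule the text names AT3G47090, PEPR2, RLK7, RLP23 and ANX2, the neighbours that overlap receptor genes, and tissue markers, all picked after their values were seen. Alternatives were other added constants, filters, scalings, fold limits and gene lengths.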

Additional observations from a re-analysis of the deposited data

How the results depend on the processing

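The direction of every receptor gene's ratio was kept in all 92 recomputed values, over added constants of 0.1, 5 and 0 RPKM, other filters, TMM, upper-quartile and median scaling, joined exon lengths and summed neighbours. Added constants, filters and lengths cannot turn a direction, since they are the same in both libraries. Only the scalings and the summed neighbours could have turned it. The fold interval of SERK2 includes 1, so its direction stays within counting error. The count at least 2-fold higher stayed at 6, except that it was 5 with 5 RPKM added, where BIR2 fell short, and 1 at a 4-fold limit. The count at least 2-fold lower, 0, became 1, for BIR3, with 0.1 RPKM added, with no constant, with upper-quartile scaling and at a 1.5-fold limit. The median log2 ratio of 1.19 was 0.97 with 5 RPKM added and 1.32 with a filter at 5 RPKM, which leaves out SERK1. Of the context lists, the receptor-like proteins had 2 higher genes with 0.1 RPKM or no constant added, and their median of 0.58 was 0.83 with no constant and 0.27 with 5 RPKM added. With 5 RPKM added, partners and regulators had 7 higher instead of 10, other receptors 4 instead of 5, and the folding genes 0; subfamily relatives and other receptors had 1 lower each. With that constant 7.43% of all genes passed 2-fold higher and 4.43% passed 2-fold lower, against 11.3% and 8.27%; at 1.5-fold the shares were 19.4% and 18.7%, and at 4-fold 4.17% and 1.49%. With 0.1 RPKM added 13.03% of all genes passed 2-fold higher and 10.9% passed 2-fold lower, and with no constant 13.2% and 11.3%. With upper-quartile scaling the shares were 10.7% and 8.999%. Beside these lower shares, 1 lower gene among the 10 receptor genes is not read as a difference from all genes. No paired analysis was possible because each group is 1 library, and no replicate could be left out.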
